A study of Mus musculus with 11 samples.

Results

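Chemokines and their receptors were examined in mammary tumors of mice with and without *Pcbp1* in the mammary epithelium. Members were the protein-coding genes whose symbols begin with Ccl, Ccr, Cxcl or Cxcr followed by a number, together with the CX3C, XC and Ackr genes. This gave 50 of the 26283 genes measured, of which 31 encode ligands, 15 signalling receptors and 4 atypical receptors. RNA sequencing of whole tumors was compared between 6 PyMT *Pcbp1*–/– and 5 PyMT *Pcbp1*+/+ tumors from female C57BL/6 mice aged 18 weeks. Both groups carried MMTV-PyMT, which drives mammary tumors with a viral oncogene, and MMTV-Cre, and they differed in carrying *Pcbp1*(fl/fl) or *Pcbp1*(wt/wt) alleles. The paper describes the knockout as selective for mammary epithelial cells. Whether the other cells of a tumor keep the gene was not tested here, and the sequenced RNA holds all cells. The comparison asks how loss of this nucleic acid-binding protein in the epithelium goes with the chemokine transcripts of the tumor. Summed estimated counts ran from 1.05432e+07 to 1.40922e+07 a tumor, so that 3 counts, the limit that a count of 0 allows, were worth 0.213 to 0.285 CPM, the deposited unit that scales each tumor to the same total. That limit covers counting error only.

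Chemokines are small secreted proteins, named for the spacing of their first cysteines, that guide the migration of leukocytes along gradients. They act on G protein-coupled receptors, most of which couple to inhibitory G proteins, whereas atypical receptors take up ligand without that coupling. In mammary tumors they are made by cancer cells, fibroblasts, endothelium and leukocytes, and one receptor often answers to several ligands.

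*Pcbp1* itself separated the groups. It measured 268, 271, 225, 219.5 and 259 CPM in PyMT *Pcbp1*+/+ tumors 1 to 5, and 15.4 CPM at the lowest, 20.9 at the median and 33.6 at the highest in the 6 PyMT *Pcbp1*–/– tumors. The groups did not overlap, and each library went with its label. The log2 fold change was -3.43 (SE 0.19, adjusted p = 4.72e-06 by edgeR's quasi-likelihood test with Benjamini-Hochberg adjustment). Luminal epithelial transcripts were abundant in every tumor, with summed CPM of *Krt8*, *Krt18*, *Krt19*, *Epcam*, *Cdh1* and *Elf5* from 943 to 1594 in PyMT *Pcbp1*–/– and from 1160 to 1655 in PyMT *Pcbp1*+/+ tumors.

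Ligands of CXCR3 and the CX3C ligand were lower on average in PyMT *Pcbp1*–/– tumors and a CCR8 ligand and CCR1 were higher, but no member passed the adjusted threshold. In all, 32 of the 50 members passed the filter on low counts and were tested. By edgeR, 0 of the 32 were lower at an adjusted p under 0.05, against 1.66% of all 19232 genes tested, and 0 were higher, against 0.608%. At an unadjusted p under 0.05, 3 were lower (*Cx3cl1*, *Cxcl10* and *Cxcl9*), beside 10.5% of all genes, and 2 were higher (*Ccl8* and *Ccr1*), beside 8.19%. The members' shares, 9.38% and 6.25%, lay near those backgrounds. DESeq2 called 1 member lower (*Cx3cl1*), beside 3.8% of all genes. With sample quality weights, limma-voom called 3 (*Cx3cl1*, *Cxcl9* and *Cxcl10*), beside 6.19%. Neither DESeq2 nor limma-voom called a member higher, beside 2.53% and 5.03% of all genes. Leaving out PyMT *Pcbp1*–/– tumor 1 gave 1 member called lower by edgeR (*Cx3cl1*), beside 1.13% of all genes, and leaving out PyMT *Pcbp1*+/+ tumor 5 gave 1 (*Cxcl10*), beside 1.65%. At an unadjusted p under 0.05 the number lower was 5 without PyMT *Pcbp1*+/+ tumor 1 or PyMT *Pcbp1*–/– tumor 6 and 6 without PyMT *Pcbp1*+/+ tumor 4 or 5. Those fits tested from 30 to 34 members, and the counts include *Ackr2* without PyMT *Pcbp1*+/+ tumor 1 or 5 and *Cxcl5* without PyMT *Pcbp1*+/+ tumor 4, which are not among the 32. The number higher was 6 without PyMT *Pcbp1*+/+ tumor 3, 0 without PyMT *Pcbp1*+/+ tumor 5, and 1 without PyMT *Pcbp1*+/+ tumor 2 or 4 or PyMT *Pcbp1*–/– tumor 3, 4 or 6. With a tumor left out, from 8.58% to 11.6% of all genes were lower at that p and from 6.54% to 9.91% higher. For 0 of the 32 did every PyMT *Pcbp1*–/– tumor lie below every PyMT *Pcbp1*+/+ tumor, against 2.02% of all genes, and for 0 did every one lie above, against 1.27%. By direction alone 18 were lower and 14 higher, with a median log2 fold change of -0.035 beside -0.0001 over all genes. Scaling by library size alone gave 19 and 13, since *Cxcr6* changed sign. Among ligands 13 of 19 were lower, and among receptors 5 of 13, beside 50% of all genes tested.

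**Figure D1:**
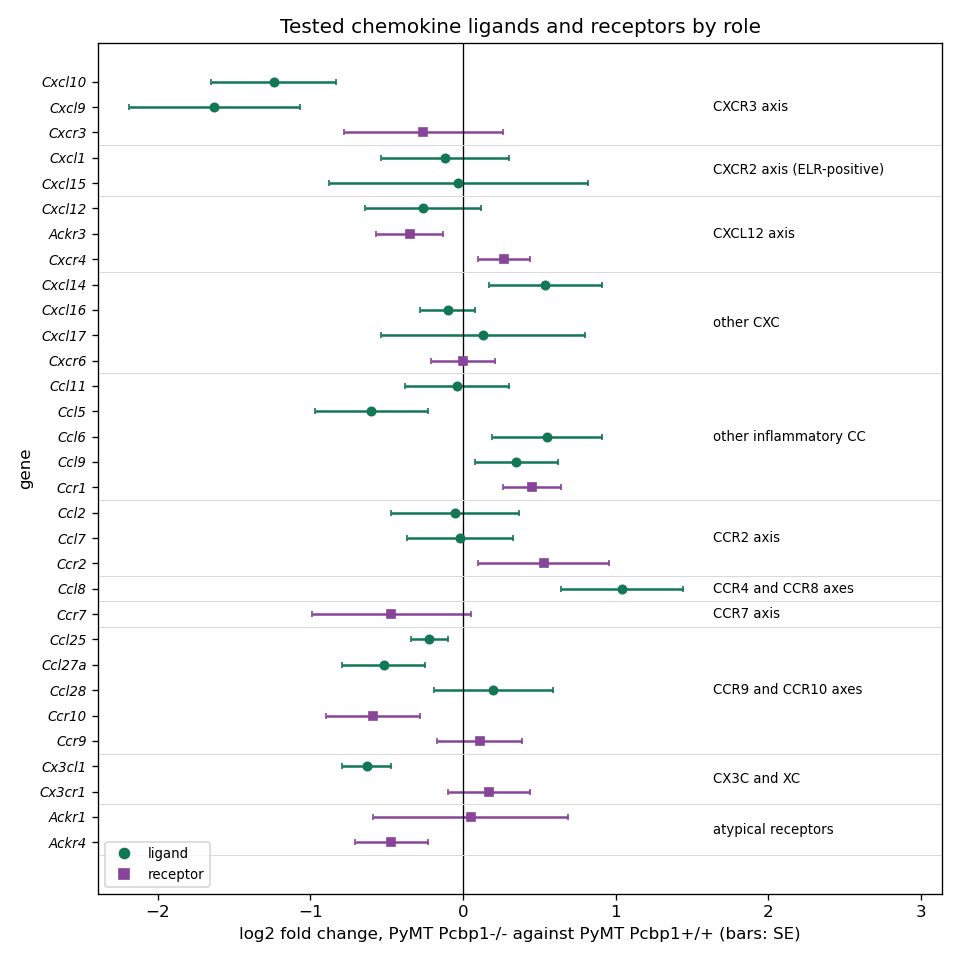
log2 fold change of tested members, PyMT *Pcbp1*–/– against PyMT *Pcbp1*+/+, with points for ligands, squares for receptors and bars for the SE of edgeR's fit, grouped by role. *Cxcl9* (-1.63) and *Cxcl10* (-1.24) lie farthest to the left and *Ccl8* (1.04) farthest to the right; the sign of *Cxcr6* changes when library size alone is used for scaling.

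CXCR3 is the receptor through which interferon-induced chemokines recruit activated T cells and natural killer cells, and *Cxcl9* and *Cxcl10* encode ligands of it. *Cxcl9* (ENSMUSG00000029417.9, GRCm38 chr5:92321347-92328079) measured 4.20, 3.22, 10.3, 3.46 and 0.893 CPM in PyMT *Pcbp1*+/+ tumors 1 to 5, and 0.639 CPM at the lowest, 1.19 at the median and 2.73 at the highest in PyMT *Pcbp1*–/– tumors. Tumor 3 of PyMT *Pcbp1*+/+ was the highest and tumor 5 fell within the PyMT *Pcbp1*–/– range, so the groups overlapped. Mean CPM was 1.45 ± 0.908 (SD, n = 6) against 4.41 ± 3.49 (SD, n = 5), and an exact permutation test, taken on both sides, gave p = 0.0216. Its log2 fold change was -1.63 (SE 0.56, edgeR adjusted p = 0.144, range over all alternatives 0.0429 to 0.352), and -0.97 without PyMT *Pcbp1*+/+ tumor 3, where its unadjusted p was not under 0.05. *Cxcl10* (ENSMUSG00000034855.13, chr5:92346638-92348889) measured 3.01, 4.17, 5.69, 3.28 and 0.714 CPM in PyMT *Pcbp1*+/+ tumors 1 to 5, and 0.979, 1.19 and 2.31 CPM at the lowest, median and highest of PyMT *Pcbp1*–/–. Here PyMT *Pcbp1*+/+ tumor 5 was below every PyMT *Pcbp1*–/– tumor and the other PyMT *Pcbp1*+/+ tumors were above all of them. Means were 1.44 ± 0.558 (SD, n = 6) and 3.38 ± 1.82 CPM (SD, n = 5), with p = 0.0346 in the exact permutation test. Its log2 fold change was -1.24 (SE 0.41, edgeR adjusted p = 0.136). Without PyMT *Pcbp1*+/+ tumor 5 it was -1.49 with an edgeR adjusted p of 0.0296, and over all alternatives the adjusted p ran from 0.0296 to 0.295. On log2(CPM + 0.5) the exact permutation p was 0.0519 for *Cxcl9* and 0.0584 for *Cxcl10*, past the threshold on CPM but not on this scale. Few reads lie behind these genes, and *Art3* overlaps *Cxcl10* on the other strand.

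Their receptor showed no such difference in means. *Cxcr3* measured 1.00, 0.379, 2.54, 0.638 and 0.357 CPM in PyMT *Pcbp1*+/+ tumors 1 to 5, and 0.426, 0.839 and 1.31 CPM at the lowest, median and highest of PyMT *Pcbp1*–/–. The highest value was again in PyMT *Pcbp1*+/+ tumor 3, and the PyMT *Pcbp1*–/– values lay inside the PyMT *Pcbp1*+/+ range. The log2 fold change was -0.26 (SE 0.52, edgeR adjusted p = 0.827), and 0.53 without PyMT *Pcbp1*+/+ tumor 3. Fewer cells of a type and less RNA per cell cannot be told apart in such bulk samples. Summed T cell markers (8 genes, *Cd8a* the most abundant) measured 8.04, 2.94, 7.10, 9.39 and 2.77 CPM in PyMT *Pcbp1*+/+ tumors 1 to 5 and from 3.52 to 8.01 in PyMT *Pcbp1*–/–. Of these, *Cd2*, *Cd3d*, *Cd5* and *Cd8b1* were at 0 in at least 1 tumor, 3 of 8 could be tested and 0 were called by edgeR. Summed natural killer and cytotoxic markers (7 genes, led by *Klrk1*) measured 5.12, 1.42, 9.46, 7.29 and 3.57 CPM in PyMT *Pcbp1*+/+ and from 2.32 to 9.90 in PyMT *Pcbp1*–/–, with *Gzma* and *Ncr1* at 0 in some tumors. Tumors 2 and 5 of PyMT *Pcbp1*+/+ were thus the lowest of their group in both lists, while only tumor 5 was low in *Cxcl9* and *Cxcl10*. Summed dendritic cell markers (6 genes, led by *H2-Ab1*) were 101, 61.7, 119, 96.4 and 47.6 CPM in PyMT *Pcbp1*+/+ and from 33.6 to 84.5 in PyMT *Pcbp1*–/–. These sums mainly follow *H2-Ab1*, with a mean of 64.1 of 85.0 CPM in PyMT *Pcbp1*+/+ and 43.3 of 62.4 in PyMT *Pcbp1*–/–. Of the list 4 were tested and 0 called by edgeR, with log2 fold changes of -1.36 (*Clec9a*), -0.57 (*H2-Ab1*), -0.38 (*Itgax*) and 0.11 (*Zbtb46*). The one with the largest fold change, *Clec9a*, measured 1.55, 0.664, 3.58, 1.73 and 0.893 CPM in PyMT *Pcbp1*+/+ tumors 1 to 5, and 0.512, 0.651 and 0.891 CPM at the lowest, median and highest of PyMT *Pcbp1*–/–. As in *Cxcl9*, PyMT *Pcbp1*+/+ tumor 3 was the highest, and the groups overlapped through PyMT *Pcbp1*+/+ tumor 2 (SE 0.41, edgeR adjusted p = 0.105). The part of these cells in the chemokine values was not tested.

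**Figure D2:**
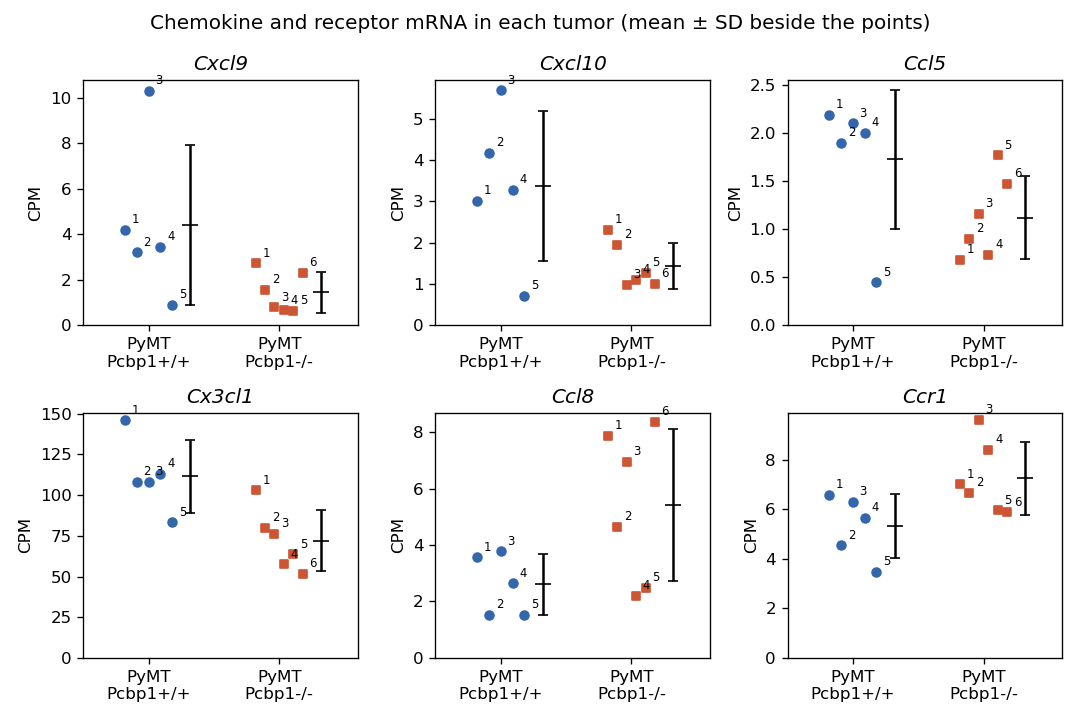
CPM of 6 members in each tumor, with PyMT *Pcbp1*+/+ tumors as circles, PyMT *Pcbp1*–/– tumors as squares, replicate numbers beside the points, and the mean ± SD at the right of each group. PyMT *Pcbp1*+/+ tumor 5 lies low for *Cxcl9* (0.893), *Cxcl10* (0.714) and *Ccl5* (0.447), and the groups overlap in all 6 panels.

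Genes that carry the interferon-gamma signal to the CXCR3 ligands were followed as a list of 10. By edgeR 0 of the 9 tested were called, 2 were lower at an unadjusted p under 0.05, beside 10.5% of all genes, and 0 were higher. The list's median log2 fold change was -0.028. *Ifng* was at 0.284 CPM or lower in every tumor, at or near the limit of a count of 0, and was not tested.

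Promoters are shown for the 3 members that were lower at an unadjusted p under 0.05, because the ligands of CXCR3 are known targets of interferon and NF-kB signalling. RefSeq windows (GRCm38.p6, 250 bases before to 50 after the start, 5′ to 3′ on the gene's strand) were matched for 38 members, with 41 windows. Motifs were searched on both strands as GAAANNGAA (interferon-stimulated response element, ISRE), TTCNNNGAA (gamma-activated sequence, GAS) and GGANTTTCC (NF-kB). The ISRE letters were in 12.2% of member windows and 8.56% of all 32851 windows, the GAS letters in 4.88% and 8.3%, and the NF-kB letters in 9.76% and 1.25%. *Cxcl9* (chr5:92328030-92328329, minus strand) held the ISRE letters, *Cxcl10* (chr5:92348840-92349139, minus strand) the ISRE and, on the other strand, the NF-kB letters, with no overlap between them. In *Cx3cl1* (chr8:94771930-94772229, plus strand) none of these letters were found in the window. The ISRE letters were also in the windows of *Ccl3*, *Ccr2* and *Cxcl14*. Of these, *Ccr2* and *Cxcl14* had positive log2 fold changes (0.53 and 0.54), and *Ccl3* was not tested. The NF-kB letters were also in the windows of *Cxcl1*, *Cxcl2* and *Cxcl3*. Capitals mark the matches, which are descriptions of sequence and not sites.
Cxcl9: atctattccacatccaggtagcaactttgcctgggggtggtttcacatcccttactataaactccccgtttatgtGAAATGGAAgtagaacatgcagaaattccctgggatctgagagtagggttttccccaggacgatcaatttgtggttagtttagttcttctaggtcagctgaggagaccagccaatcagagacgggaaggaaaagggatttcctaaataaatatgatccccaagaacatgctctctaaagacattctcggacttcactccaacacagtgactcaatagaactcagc
Cxcl10: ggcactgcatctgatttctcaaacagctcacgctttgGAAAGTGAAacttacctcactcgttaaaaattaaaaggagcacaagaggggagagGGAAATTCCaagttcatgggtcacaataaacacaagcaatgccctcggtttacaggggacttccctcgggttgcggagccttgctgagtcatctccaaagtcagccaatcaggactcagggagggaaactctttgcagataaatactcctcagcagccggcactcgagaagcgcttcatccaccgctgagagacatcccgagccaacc
Cx3cl1: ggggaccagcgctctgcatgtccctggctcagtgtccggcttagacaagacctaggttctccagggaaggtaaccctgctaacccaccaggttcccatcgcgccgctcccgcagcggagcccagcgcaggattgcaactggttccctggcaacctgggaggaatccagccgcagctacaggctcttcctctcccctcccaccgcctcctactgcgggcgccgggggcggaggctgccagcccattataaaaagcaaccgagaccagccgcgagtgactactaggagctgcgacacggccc

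*Cx3cl1* encodes fractalkine, a membrane-bound chemokine that ADAM10 and ADAM17 can shed and whose receptor CX3CR1 is found on monocytes, macrophages and natural killer cells. It had the lowest unadjusted p of the members. *Cx3cl1* (ENSMUSG00000031778.13, chr8:94772009-94782427) measured 146, 108, 108, 113 and 83.3 CPM in PyMT *Pcbp1*+/+ tumors 1 to 5, and 51.7, 70.0 and 103 CPM at the lowest, median and highest of PyMT *Pcbp1*–/–. The groups overlapped only through PyMT *Pcbp1*+/+ tumor 5 and PyMT *Pcbp1*–/– tumor 1. Means were 72.0 ± 18.7 (SD, n = 6) and 111 ± 22.4 CPM (SD, n = 5), with p = 0.0108 in the exact permutation test on CPM and on log2(CPM + 0.5). The log2 fold change was -0.63 (SE 0.16, edgeR adjusted p = 0.0684). Without PyMT *Pcbp1*–/– tumor 1 it was -0.75 (edgeR adjusted p = 0.0233), DESeq2 gave an adjusted p of 0.0162, and the range over all alternatives was 0.0106 to 0.147. *Cx3cr1* measured 48.0, 24.8, 44.4, 51.8 and 21.3 CPM in PyMT *Pcbp1*+/+ tumors 1 to 5, and 27.5, 39.6 and 65.3 CPM at the lowest, median and highest of PyMT *Pcbp1*–/–. Its groups overlapped widely (log2 fold change 0.17, SE 0.27), and *Gorasp1* and *Csrnp1* lie within its annotated span on the same strand, so its reads are uncertain. Among 7 tested genes that process ligands and receptors edgeR called 0, and 1 was higher at an unadjusted p under 0.05, beside 8.19% of all genes: *Adam17*, at 62.9 ± 3.90 CPM in PyMT *Pcbp1*–/– (SD, n = 6) and 51.7 ± 3.17 in PyMT *Pcbp1*+/+ (SD, n = 5), with an edgeR adjusted p of 0.0654. The XC pair, *Xcl1* and *Xcr1*, was not tested, with mean CPM of 0.369 and 0.767.

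CCR1 binds inflammatory CC chemokines on monocytes and macrophages. *Ccr1* (ENSMUSG00000025804.5, chr9:123962124-123968692) measured 6.58, 4.55, 6.31, 5.65 and 3.48 CPM in PyMT *Pcbp1*+/+ tumors 1 to 5, and 5.88, 6.84 and 9.61 CPM at the lowest, median and highest of PyMT *Pcbp1*–/–. The upper PyMT *Pcbp1*+/+ tumors lay inside the PyMT *Pcbp1*–/– range. The log2 fold change was 0.45 (SE 0.19, edgeR adjusted p = 0.224), and the exact permutation p was 0.0541 on CPM and 0.0433 on log2(CPM + 0.5). Its unadjusted p was not under 0.05 in edgeR without PyMT *Pcbp1*+/+ tumor 2, 4 or 5, or without PyMT *Pcbp1*–/– tumor 3 or 4. Among the ligands, *Ccl9*, a ligand of CCR1, measured 9.04, 7.11, 15.9, 5.65 and 7.59 CPM in PyMT *Pcbp1*+/+ tumors 1 to 5, and 8.97, 11.4 and 15.3 CPM at the lowest, median and highest of PyMT *Pcbp1*–/–. PyMT *Pcbp1*+/+ tumor 3 was the highest of all, PyMT *Pcbp1*+/+ tumor 1 was near the lowest PyMT *Pcbp1*–/– tumor and the other PyMT *Pcbp1*+/+ tumors were below it, giving a log2 fold change of 0.35 (SE 0.27). *Ccl5*, a CC chemokine made by T cells among others, measured 2.19, 1.90, 2.10, 2.00 and 0.447 CPM in PyMT *Pcbp1*+/+ tumors 1 to 5, and 0.683, 1.03 and 1.77 CPM at the lowest, median and highest of PyMT *Pcbp1*–/–. The first 4 PyMT *Pcbp1*+/+ tumors were above every PyMT *Pcbp1*–/– tumor and PyMT *Pcbp1*+/+ tumor 5 below all of them. Its log2 fold change was -0.60 (SE 0.37, edgeR adjusted p = 0.408), with an exact permutation p of 0.119. Without PyMT *Pcbp1*+/+ tumor 5 it was -0.84, lower at an unadjusted p under 0.05 (edgeR adjusted p = 0.147).

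Macrophage markers were given beside *Ccr1*. All 7 (*Adgre1*, *Csf1r*, *Cd68*, *Mrc1*, *C1qa*, *C1qb* and *C1qc*) were tested, 0 were called by edgeR, and the median log2 fold change was 0.235. Their summed CPM was 242, 164, 280, 226 and 126 in PyMT *Pcbp1*+/+ tumors 1 to 5 and from 170 to 358 in PyMT *Pcbp1*–/–, and *C1qb* was the most abundant. PyMT *Pcbp1*+/+ tumors 2 and 5 were the lowest in these sums and in *Ccr1*, and the part of these cells in the receptor's values was not tested.

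CCR2 brings monocytes from blood into tissue in answer to *Ccl2*, *Ccl7* and *Ccl12*. *Ccr2* measured 21.0, 9.96, 53.6, 31.1 and 15.0 CPM in PyMT *Pcbp1*+/+ tumors 1 to 5, and 20.2, 34.5 and 74.2 CPM at the lowest, median and highest of PyMT *Pcbp1*–/–. The spread within each group was wide and the groups overlapped (log2 fold change 0.53, SE 0.43, edgeR adjusted p = 0.544). It was 0.21 without PyMT *Pcbp1*–/– tumor 6 and 1.03 without PyMT *Pcbp1*+/+ tumor 3. *Ccl2* measured 2.28, 0.759, 1.84, 0.638 and 0.804 CPM in PyMT *Pcbp1*+/+ tumors 1 to 5, and 0.71, 0.976 and 2.22 CPM at the lowest, median and highest of PyMT *Pcbp1*–/–, and the groups coincided (log2 fold change -0.05, SE 0.42). *Ccl8*, an attractant of CCR8-bearing T cells in the mouse, was the ligand with the largest positive fold change among those tested. *Ccl8* (ENSMUSG00000009185.2, chr11:82115185-82116799) measured 3.56, 1.52, 3.77, 2.64 and 1.52 CPM in PyMT *Pcbp1*+/+ tumors 1 to 5, and 2.19, 5.79 and 8.35 CPM at the lowest, median and highest of PyMT *Pcbp1*–/–. In PyMT *Pcbp1*–/–, 4 tumors lay above every PyMT *Pcbp1*+/+ tumor and tumors 4 and 5 lay among them. With a log2 fold change of 1.04 (SE 0.40, edgeR adjusted p = 0.186), the exact permutation p was 0.0714. In limma-voom the log2 fold change was 0.57 (adjusted p = 0.412). The unadjusted p of *Ccl8* was not under 0.05 in that fit, in edgeR without PyMT *Pcbp1*+/+ tumor 2 or 5, or in edgeR without PyMT *Pcbp1*–/– tumor 6. *Ccl17*, *Ccl22*, *Ccr4* and *Ccr8* of the same axes did not pass the filter.

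CXCL12, made by stromal cells, retains and guides cells that carry CXCR4, and ACKR3 scavenges it. *Cxcl12* measured 35.4, 15.7, 52.2, 59.6 and 26.1 CPM in PyMT *Pcbp1*+/+ tumors 1 to 5, and 16.7, 25.6 and 54.5 CPM at the lowest, median and highest of PyMT *Pcbp1*–/–. *Cxcr4* measured 52.8, 69.2, 49.9, 55.2 and 38.0 CPM in PyMT *Pcbp1*+/+ tumors 1 to 5, and 41.0, 61.4 and 86.7 CPM at the lowest, median and highest of PyMT *Pcbp1*–/–. Both genes overlapped between groups, with log2 fold changes of -0.26 (SE 0.38) and 0.27 (SE 0.17). Fibroblast markers, of which 5 were tested and 0 called by edgeR, had summed CPM of 282, 375, 523, 538 and 301 in PyMT *Pcbp1*+/+ and from 282 to 743 in PyMT *Pcbp1*–/–, with *Col1a1* the most abundant. *Cxcl14*, an orphan-like CXC chemokine of epithelium and fibroblasts, measured 40.0, 12.5, 40.5, 60.6 and 29.4 CPM in PyMT *Pcbp1*+/+ tumors 1 to 5, and 26.7, 54.0 and 90.3 CPM at the lowest, median and highest of PyMT *Pcbp1*–/–. Its groups overlapped (log2 fold change 0.54, SE 0.37). *Cxcr6*, the receptor of CXCL16 on T cells, measured 6.94, 4.27, 6.75, 8.47 and 3.48 CPM in PyMT *Pcbp1*+/+ and 4.61, 6.16 and 7.21 CPM at the lowest, median and highest of PyMT *Pcbp1*–/–. The means hardly differed (log2 fold change 0.00, SE 0.21), and *Fyco1*, at far higher CPM, overlaps it on the other strand.

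Ligands of the neutrophil receptor CXCR2 varied widely between tumors. *Cxcl1*, a ligand of CXCR2, measured 2.47, 4.08, 1.05, 1.55 and 2.32 CPM in PyMT *Pcbp1*+/+ tumors 1 to 5, and 0.773, 2.46 and 3.33 CPM at the lowest, median and highest of PyMT *Pcbp1*–/–, with the groups intermingled (log2 fold change -0.12, SE 0.42). *Cxcl15*, a chemokine of the same subfamily, ran from 0.19 to 7.58 CPM in PyMT *Pcbp1*+/+ and from 0.355 to 6.34 in PyMT *Pcbp1*–/– tumors (log2 fold change -0.03, SE 0.85). *Cxcr2*, *Cxcl2*, *Cxcl3* and *Cxcl5* did not pass the filter, although *Cxcl5* reached 18.9 CPM in PyMT *Pcbp1*+/+ tumor 2. Neutrophil markers had summed CPM of 2.83, 6.92, 3.42, 1.18 and 2.23 in PyMT *Pcbp1*+/+ and from 1.35 to 3.82 in PyMT *Pcbp1*–/–, led by *Csf3r*, with 4 of 6 genes measured, 1 tested and 0 called by edgeR, and *Mmp8* and *S100a9* at 0 in some tumors. NF-kB genes that can drive these ligands gave 0 calls by edgeR among 12 tested. At an unadjusted p under 0.05, 2 (*Nfkb1* and *Nfkbiz*) were lower, beside 10.5% of all genes, and 0 were higher.

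CCR7 directs dendritic cells and lymphocytes to lymph nodes, and CCR9 and CCR10 guide lymphocytes to gut and epithelia. *Ccr7* measured 0.640, 0.285, 2.28, 1.82 and 0.893 CPM in PyMT *Pcbp1*+/+ tumors 1 to 5, and 0.375, 0.802 and 1.62 CPM at the lowest, median and highest of PyMT *Pcbp1*–/–, with PyMT *Pcbp1*+/+ tumors 3 and 4 high (log2 fold change -0.47, SE 0.52, and -0.04 without PyMT *Pcbp1*+/+ tumor 3). Its ligands *Ccl21a* and *Ccl21b*, near-identical copies whose reads are uncertain, were not tested. *Ccl25*, a ligand of CCR9, measured 20.1, 23.9, 27.9, 23.9 and 27.1 CPM in PyMT *Pcbp1*+/+ tumors 1 to 5, and 19.8, 21.1 and 22.7 CPM at the lowest, median and highest of PyMT *Pcbp1*–/–. PyMT *Pcbp1*+/+ tumor 1 lay inside the PyMT *Pcbp1*–/– range and the other PyMT *Pcbp1*+/+ tumors above it. The exact permutation p was 0.0325, while the log2 fold change was -0.22 (SE 0.12, edgeR adjusted p = 0.331), and *Elavl1* overlaps the gene on the other strand. *Ccr9* measured 7.02, 4.58, 8.76, 13.4 and 5.29 CPM in PyMT *Pcbp1*+/+ and 5.18, 7.57 and 13.2 CPM at the lowest, median and highest of PyMT *Pcbp1*–/–, with the groups intermingled. *Lztfl1* and a processed pseudogene (mean 186 CPM) overlap *Ccr9* on the other strand. A noncoding RNA overlaps it on the same strand, so its reads are uncertain. The scavenger *Ackr4*, which takes up CCR7 and CCR9 ligands, measured 10.5, 5.92, 5.53, 7.46 and 5.36 CPM in PyMT *Pcbp1*+/+ and 2.42, 4.93 and 6.72 CPM at the lowest, median and highest of PyMT *Pcbp1*–/–. Its PyMT *Pcbp1*+/+ values reached higher, but the groups overlapped (log2 fold change -0.47, SE 0.24, edgeR adjusted p = 0.311), and *Acad11* overlaps it on the other strand.

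Per kilobase of transcript, *Cxcr4*, *Cx3cl1* and *Ccl25* had the highest mean levels in both groups. The rank of *Ccl25* is uncertain, because *Elavl1* overlaps it and the strand setting of the counting is not given. In PyMT *Pcbp1*+/+ tumors *Cx3cl1* (33.6 CPM per kb) was above *Cxcr4* (29.1) and *Ccl25* (27.2), and in PyMT *Pcbp1*–/– tumors *Cxcr4* (35.0) was above *Ccl25* (23.6) and *Cx3cl1* (21.7). On the same scale *Cxcl10* was at 3.07 in PyMT *Pcbp1*+/+ and 1.30 in PyMT *Pcbp1*–/– tumors, and *Cxcl9* at 1.52 and 0.502. The 18 members that did not pass the filter had mean CPM from 0.0852 to 2.51, and 11 of them were at 0 in at least 1 tumor. When fitted without the filter their lowest edgeR adjusted p was 0.203. *Ccl19*, *Ccl20*, *Ccl24*, *Cxcl11*, *Ccr3*, *Ccr6* and *Cxcr1* were not analysed here.

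Members lie in clusters that the choice of genes did not use. On chromosome 8, *Cx3cl1* lies between *Ccl22* and *Ccl17* (chr8:94745590-94812036), of which *Cx3cl1* alone was tested. On chromosome 11, the cluster of *Ccl2*, *Ccl7*, *Ccl11*, *Ccl12* and *Ccl8* (chr11:82035571-82116799) had log2 fold changes from -0.05 to 1.04 among its 4 tested members, the highest being that of *Ccl8*. The difference between *Ccl8* and its neighbours was not tested.

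Ligand and receptor levels were related across tumors for 11 of 25 pairs, those in which both genes passed the filter. On log2(CPM + 0.5), *Ccl7* and *Ccr2* had Pearson's r = 0.71 (permutation p = 0.0147, Benjamini-Hochberg adjusted p = 0.162) and Spearman's rho = 0.75 (permutation p = 0.0114, adjusted p = 0.125). Without PyMT *Pcbp1*+/+ tumors 2 and 5, the farthest from the median, r was 0.41 (permutation p = 0.273), and within the 6 PyMT *Pcbp1*–/– tumors it was 0.80 (exact permutation p = 0.0583). *Cxcl9* and *Cxcr3* had r = 0.65 (permutation p = 0.0302, Benjamini-Hochberg adjusted p = 0.166) and rho = 0.44 (permutation p = 0.184, adjusted p = 0.663). Without PyMT *Pcbp1*–/– tumor 5 and PyMT *Pcbp1*+/+ tumor 3 that r was 0.18 (permutation p = 0.641), within the 6 PyMT *Pcbp1*–/– tumors 0.62 (exact permutation p = 0.215) and within the 5 PyMT *Pcbp1*+/+ tumors 0.88. Over all tumors the other 9 pairs had r from -0.26 to 0.38, and 0 of the 11 pairs passed the adjusted threshold by Pearson's or Spearman's coefficient. Within the 6 PyMT *Pcbp1*–/– tumors the strongest of these were *Cxcl12* and *Ackr3* (0.81), *Ccl25* and *Ccr9* (-0.78) and *Cx3cl1* and *Cx3cr1* (0.75). Their exact permutation p-values were 0.0514, 0.0722 and 0.0944, each 0.26 after Benjamini-Hochberg adjustment. Within the 5 PyMT *Pcbp1*+/+ tumors r was -0.03, -0.03 and 0.73.

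Downstream of the receptors, a list of 36 signalling genes gave 1 call among 35 tested, lower, beside 1.66% of all genes, and its median log2 fold change was 0.027. At an unadjusted p under 0.05, 2 of the 35 were lower and 4 higher, beside 10.5% and 8.19%. *Plcb3*, a phospholipase activated by G protein subunits, measured 14.3, 15.1, 10.2, 12.4 and 13.2 CPM in PyMT *Pcbp1*+/+ tumors 1 to 5, and 6.03, 7.83 and 9.37 CPM at the lowest, median and highest of PyMT *Pcbp1*–/–. The groups did not overlap, and the gene fell by 0.75 on the log2 scale (SE 0.13, edgeR adjusted p = 0.0101). Genes near the family but outside the naming rule gave 0 calls by edgeR among 3 tested. Of these *Ccrl2*, which binds chemerin without signalling, measured 32.0, 30.7, 12.4, 14.9 and 9.91 CPM in PyMT *Pcbp1*+/+ tumors 1 to 5, and 5.81, 9.85 and 13.5 CPM at the lowest, median and highest of PyMT *Pcbp1*–/–. PyMT *Pcbp1*+/+ tumors 1 and 2 were far above the rest, and the log2 fold change was -1.04 (SE 0.30, edgeR adjusted p = 0.088).

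Other marker lists are given as sums. Endothelial markers (5 genes, led by *Cdh5*) ran from 44.7 to 76.0 CPM in PyMT *Pcbp1*+/+ and from 40.2 to 76.4 in PyMT *Pcbp1*–/–, and lymphatic markers (4 genes, led by *Prox1*) from 12.3 to 29.2 and from 14.5 to 38.4. Basal epithelial markers (5 genes, led by *Acta2*) ran from 45.2 to 573 CPM in PyMT *Pcbp1*+/+ and from 63.5 to 275 in PyMT *Pcbp1*–/–, and adipocyte markers (5 genes, led by *Fabp4*) from 3.22 to 57.3 and from 1.14 to 27.9. B cell markers were near the detection limit, with 2 of 6 genes (*Cd79b* and *Pax5*, 0 tested) summing to between 0.534 and 2.09 CPM. By edgeR 0 genes of these lists were called.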

How the data were processed

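Bulk RNA sequencing of 11 mammary tumors was used. Per the submitters' processing notes and the study's methods, reads were checked with FastQC, aligned to GRCm38 with Bowtie2 and quantified in Partek Flow; the counting settings, including strand, and the annotation version are not given in the sources used here. The authors deposited estimated counts per gene, which need not be whole numbers, and CPM, those counts scaled to the same total in every tumor. The deposited end coordinate was taken as 1 past the gene. Every deposited row had at least 10 counts in all.

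For testing, the estimated counts were rounded to whole numbers and given to edgeR 4.0.16 (R 4.3.3; filterByExpr, TMM, glmQLFit and glmQLFTest, genotype only), with Benjamini-Hochberg adjustment over all 19232 genes that passed. DESeq2 1.42.0 and limma 3.58.1 were alternatives. Single genes were compared on CPM by a two-sided exact permutation test over 462 assignments, whose smallest p is 0.00216. Correlations used log2(CPM + 0.5) and 100000 resamples (Python 3.11.15, numpy 2.4.6). Levels per kilobase used the canonical transcript lengths of a later GENCODE annotation, matched by Ensembl ID for 50 members. The fits were tested on simulated data, where DESeq2 made more false calls than edgeR at the same threshold. Those data were drawn with edgeR's estimates of the spread between tumors, so they cannot rank the tools on the real counts. Results of some genes are not reported here.

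Named genes were the tested members with an unadjusted p under 0.05, *Cxcl9*, *Cxcl10* and *Ccl5*, and the most abundant tested ligand and receptor of each role group by mean CPM. Members and lists were chosen with earlier results of these data known. Libraries of 1 group differed by more than sampling noise, so each was taken as a separate library and counted once. Whether each tumor came from a different mouse is not given in the sources used here. The p-values treat the tumors as independent and reflect the spread between them. Alternatives were other normalizations, filters, tests and pseudocounts, protein-coding genes only, a replicate block, and each tumor left out.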

Additional observations from a re-analysis of the deposited data

Results flagged for a closer look

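In 13 of the 128 groups of tumors examined (each member, *Pcbp1* and each marker sum, in each genotype), a single tumor stood far from the others. Chance flags about 1 in 20 such groups if values are normally distributed, which was not tested, and members that do not pass the filter rest on few counts. These genes are named because of their values, outside the rule for named genes.

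PyMT *Pcbp1*+/+ tumor 5 was far below the others in *Ccl5* (0.447 CPM, next 1.90). PyMT *Pcbp1*+/+ tumor 2 was far above the others in *Cxcl5* (18.9 CPM, next 2.65), *Cxcr2* (1.71, next 0.263) and *Ccr10* (7.49, next 3.15). PyMT *Pcbp1*+/+ tumor 1 was high in *Cxcl15* (7.58 CPM, next 1.18), and PyMT *Pcbp1*+/+ tumor 3 in summed adipocyte markers (57.3 CPM, next 10.5).

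PyMT *Pcbp1*–/– tumor 6 was far above its group in *Ccr2* (74.2 CPM, next 38.7), *Cxcl15* (6.34, next 1.68), *Ccl21b* (1.00, next 0.178), *Ccl22* (0.928, next 0.427) and summed B cell markers (2.09, next 1.03). PyMT *Pcbp1*–/– tumor 1 was high in *Ccl12* (1.54 CPM, next 0.60) and PyMT *Pcbp1*–/– tumor 3 in *Ccl17* (0.356, next 0.0854).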

How the results depend on the processing

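The count of members called lower was 0 by edgeR, 1 by DESeq2, 3 by limma-voom with sample quality weights, and 0 to 1 when each tumor was left out. The count called higher was 0 in every alternative run, beside 0.211% to 5.03% of all genes. All genes called numbered 436 in edgeR, 1216 in DESeq2 and 2158 in limma-voom, and from 186 to 541 with a tumor left out. That count moved by over 1.5 times without PyMT *Pcbp1*–/– tumor 3 (186), 4 (194), 5 (211) or 6 (281), and without PyMT *Pcbp1*+/+ tumor 1 (225), 3 (225) or 4 (190). The cause was not tested.

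Among the 10 tumors that share replicate numbers, blocking on the number left 160 genes called. The same tumors without the block, a fit added after seeing the data, gave 281, and 0 members were called in both. Same-numbered tumors had correlations of 0.15, 0.0747, -0.1, -0.16 and 0.309, so the numbers were not taken as a pairing. Under the block the unadjusted p of *Cxcl10* was not under 0.05. The log2 fold changes of *Ccl2* and *Cxcl1* were 0.05 and 0.09 under the block. Without the block these log2 fold changes were 0.01 and 0.05, and that of *Cxcr6* was -0.03.

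Among log2 fold changes of named members under the alternatives, 373 kept direction and side of the threshold, 6 passed it (*Cx3cl1*, *Cxcl9* and *Cxcl10*, all lower) and 28 changed sign. With limma-voom these were *Ccr9* (-0.19), *Cx3cr1* (-0.19), *Cxcl1* (0.34) and *Cxcr6* (-0.18). The same tool gave -0.69 for *Cxcl12*, lower at an unadjusted p under 0.05. On log2(CPM + 0.1) they were *Ccl2* (0.01) and *Cxcr3* (0.05), and by library size *Cxcr6* (-0.01). With a tumor left out the ranges were -0.29 to 0.23 for *Ccl2*, -0.05 to 0.36 for *Ccr9*, -0.28 to 0.19 for *Cxcl1*, -0.46 to 0.53 for *Cxcr3* and -0.13 to 0.14 for *Cxcr6*. *Cxcr3* passed the filter in 6 of these 11 fits, not without PyMT *Pcbp1*–/– tumor 1, 2, 4, 5 or 6, and *Ccr7* not without PyMT *Pcbp1*–/– tumor 1 or 6. Without a change of sign they were 0.20 to 0.70 for *Ccl9*, 0.01 to 0.28 for *Cx3cr1*, -0.49 to -0.07 for *Cxcl12*, 0.31 to 0.77 for *Cxcl14*, 0.17 to 0.38 for *Cxcr4*, -0.31 to -0.14 for *Ccl25* and -0.59 to -0.31 for *Ackr4*. By edgeR, *Ccl9* and *Ccr2* were among the members higher at an unadjusted p under 0.05 without PyMT *Pcbp1*+/+ tumor 3. So was *Cxcr4* without PyMT *Pcbp1*+/+ tumor 2, without PyMT *Pcbp1*–/– tumor 5 and under the block. At that p *Ccl25* was lower without PyMT *Pcbp1*+/+ tumor 1. *Ackr4* was lower without PyMT *Pcbp1*–/– tumor 6, under the block and in limma-voom. The difference of *Cxcr6* was -0.0225 CPM but 0.05 on log2(CPM + 0.5). Correlations changed sign for *Cxcl10* and *Cxcr3* (-0.35 without 2 tumors, -0.12 within PyMT *Pcbp1*–/–), *Cxcl16* and *Cxcr6* (-0.23 and -0.04), *Cxcl12* and *Cxcr4* (rho -0.06), and within PyMT *Pcbp1*–/– for *Ccl2* and *Ccr2* (-0.08). The cause was not tested. Differences in members near 0.285 CPM were not detectable at this depth.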
